A study of Arabidopsis thaliana with 19 samples.

Results

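The UGT genes of Arabidopsis thaliana outside the flavonoid glycosyltransferases UGT78D1, UGT78D2 and UGT78D3 were followed across 4 ploidy groups. Members were all genes with a single-gene probe set whose symbol starts with UGT and a digit, with those 3 genes left out. Of 13356 genes that had a single-gene probe set, 44 met this rule. Where a gene had several probe sets, the one with the highest mean over the 19 arrays was to stand for it, but 0 members had more than 1. Members were thus chosen by symbol, and the mean level, the measured value that would have selected between probe sets, did not come into use. The rule itself was set with earlier results of these data known, so the shares of members given below are descriptive. A further 4 UGT genes shared 3 probe sets with other genes, and 7 UGT symbols of the gene table were on no listed probe set; these were not analysed here. The members fell into 10 families and 20 subfamilies by the number and letter of the symbol, with 9 members in UGT71, 8 in UGT76, 7 in UGT73, 5 each in UGT84 and UGT85, 4 in UGT72, 3 in UGT74 and 1 each in UGT80, UGT87 and UGT88.

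UGT enzymes move a sugar, usually glucose, from a UDP-sugar onto a small molecule. Sugar conjugates of plant hormones are stored, moved or inactivated forms, and conjugates of phenolic acids, monolignols and flavonols make up much of the soluble phenolic pool of leaves and roots. The family number groups enzymes by sequence, and enzymes of 1 family can act on different substrates.

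Each array measured RNA of a single seedling, 2 weeks old, raised in a growth chamber on full-strength Murashige and Skoog medium. Diploids (2x) were represented by 4 seedlings, and maternal excess triploids (3xm), paternal excess triploids (3xp) and tetraploids (4x) by 5 each. In a maternal excess triploid the additional genome copy comes from the seed parent, and in a paternal excess triploid from the pollen parent. The strain and the origin of the tetraploid line were not given in the sources used here. Values are log2 signals made by RMA, so 1 unit is a doubling, and they compare the same gene between seedlings. They do not order different genes by RNA abundance, because each probe set binds with its own strength. Whole seedlings were sampled, so fewer cells of a type and less RNA per cell cannot be told apart. RNA amounts were scaled to a common distribution in every array, so a change of all transcripts per cell would not be seen.

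Seedling 3xm 4 stood apart from the rest. Its chromosome 4 genes were shifted by a median of 0.125 on the log2 scale against all its nuclear genes, chromosome 4 included. The other 18 seedlings lay between -0.00502 and 0.00183. It held the lowest value of 13 of the 44 members (29.5%), against 14.1% of all probe sets. Next for lowest values were 4x 1 (13.6% of members, against 6.56%) and 3xp 3 (11.4%, against 6.41%). Seedling 2x 1 held the highest value of the most members (20.5%, against 10.8%). Because of its chromosome 4 shift and low values, differences and counts that use the 3xm group are given with and without 3xm 4. The array medians were 5.80 to 5.89. Of 5 leaf markers 1 was measured, the Rubisco activase gene RCA. Of 5 root markers 3 were measured (PYK10, EXPA7 and EXPA18); their mean level per seedling was 8.05 to 8.93 in 2x, 7.69 to 9.24 in 3xm, 8.44 to 9.06 in 3xp and 8.72 to 9.62 in 4x, and none passed the test in any comparison. The mean of WRKY53 and STZ, which respond to handling, was 4.18 to 4.57 in 2x, 4.66 to 7.04 in 3xm, 5.43 to 7.72 in 3xp and 5.01 to 5.93 in 4x. STZ rose in 3xp against 2x by 1.94 (adjusted p 0.00757 from limma). The part of the root and handling genes in the results that follow was not tested.

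Member signals ran from a mean of 2.85 for UGT73C2 to 9.90 for UGT88A1. The next highest means were 8.87 for UGT87A2, a gene known for its effect on flowering time, 8.62 for UGT74D1, 8.30 for UGT84A3 and 8.25 for UGT74B1, which glucosylates a precursor of glucosinolates. UGT76E1 at 3.02 and UGT84B2 at 3.18 followed UGT73C2 at the low end, and 7 members lay among the dimmest 30% of probe sets, with means below 4.07. Regardless of sign, the median 4x minus 2x difference was 0.169 over the members and 0.106 over all probe sets. It was 0.133 and 0.0814 for 3xm minus 2x, and 0.127 and 0.104 for 3xp minus 2x. Against 4x it was 0.131 and 0.0872 for 3xm, and 0.139 and 0.0786 for 3xp. Between the triploid groups it was 0.0702 and 0.0858. Group means lay close together for some members. UGT88A1 averaged 9.90 ± 0.11 (SD, n = 4) in 2x, 9.82 ± 0.24 in 3xm, 9.97 ± 0.14 in 3xp and 9.92 ± 0.18 in 4x (n = 5 each).

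**Figure D1:**
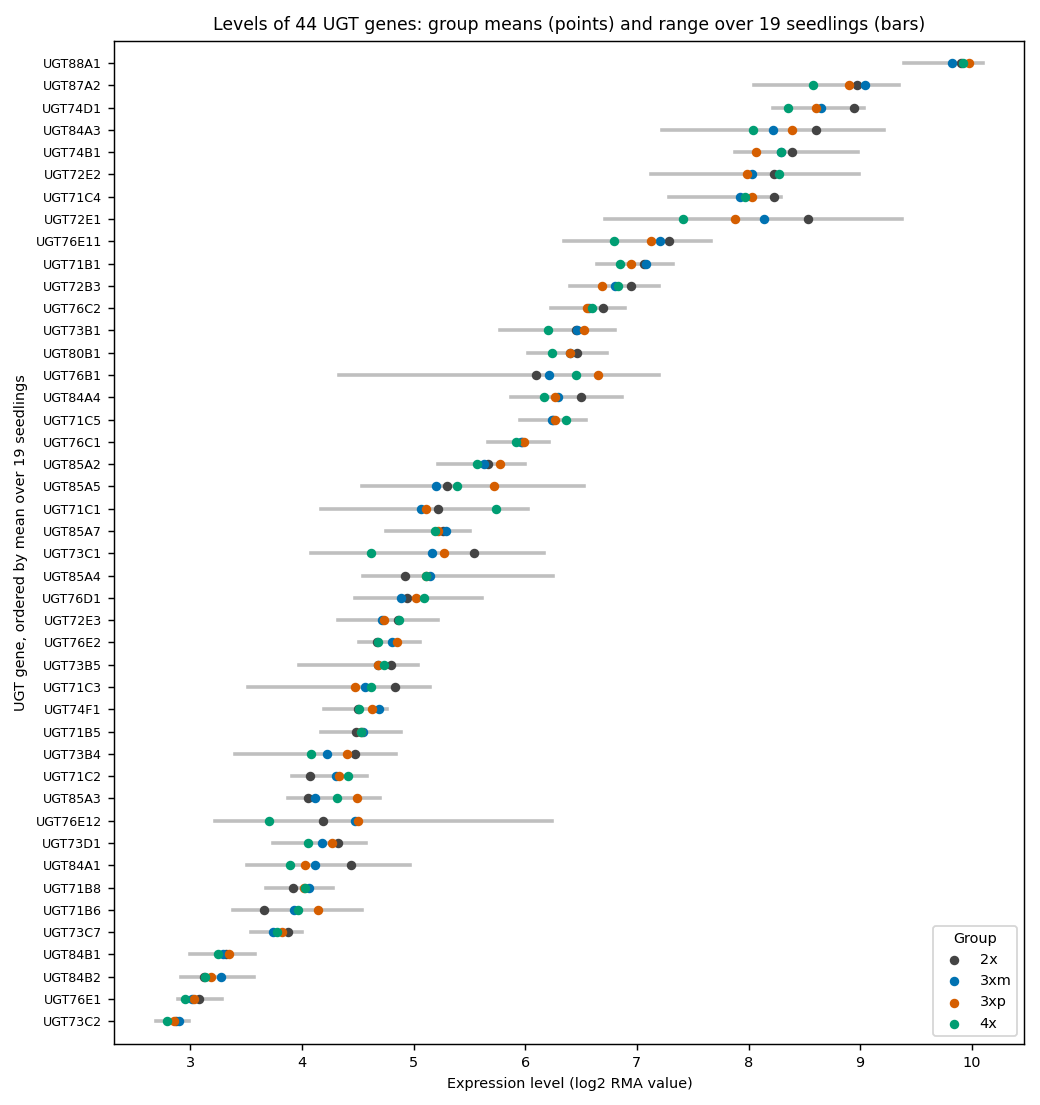
Expression level (log2 RMA value, horizontal axis) of the 44 UGT genes, ordered by mean; points are group means (n = 4 for 2x, 5 for the others) and bars the range over 19 seedlings. On this axis the group means of many genes lie near each other. UGT72E1 and UGT74D1 have the 2x point to the right of the 4x point, and UGT76E12 and UGT76B1 have the longest bars.

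In the comparison of tetraploids with diploids, which asks what a doubled genome changes, 1 of 44 members passed an adjusted p of 0.05 (2.27%), and 0.958% of all probe sets did. That member was UGT74D1 (AT2G31750), which glucosylates indole-3-acetic acid and its oxidised form, and it fell (0.396% of probe sets were lower by the same test). Its level was 9.01, 8.85, 9.02 and 8.89 in the 4 diploids, 8.52, 8.72, 8.74, 8.22 and 9.03 in 3xm, 8.49, 8.77, 8.44, 8.78 and 8.54 in 3xp, and 8.34, 8.41, 8.47, 8.28 and 8.25 in 4x. All 5 tetraploids lay below all 4 diploids, and the triploids spread over the gap between them, with 3xm 5 above every diploid and 3xm 4 below every tetraploid. The group means were 8.94 ± 0.08 (SD, n = 4) in 2x, 8.65 ± 0.30 in 3xm, 8.60 ± 0.16 in 3xp and 8.35 ± 0.09 in 4x (n = 5 each). Tetraploids were lower by -0.59 ± 0.123 (log2, SE), or 0.663 of the diploid level, with an adjusted p of 0.0226 from limma. The 3 root markers had a median 4x minus 2x difference of 0.85 beside it, and their part in it was not tested.

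The UGT74D1 call was sensitive to single seedlings. Over all settings the difference stayed between -0.62 and -0.56 while the adjusted p ranged from 0.00219 to 0.0911, and the call ended without 2x 1, 2x 3, 2x 4, 4x 1, 4x 4 or 4x 5. Its triploids did not pass the test against diploids: 3xm minus 2x was -0.30 ± 0.123 with an adjusted p of 0.999, and -0.19 without 3xm 4. The paternal excess triploids differed from diploids by -0.34 ± 0.123, with an adjusted p of 0.241. All 5 paternal excess seedlings nevertheless lay below all 4 diploids. The F test over the 4 groups gave UGT74D1 an adjusted p of 0.101, and 0.0177 without 3xm 4.

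The values of IAGLU and of the 3 UGT78D genes, which are not among the members, are given beside it. IAGLU, named as an auxin glucosyltransferase, averaged 8.79 ± 0.10 (SD, n = 4) in 2x and 8.05 ± 0.08 (n = 5) in 4x, a difference of -0.74 with an adjusted p of 0.00443 from limma. UGT78D2, which acts on flavonoids, averaged 8.98 ± 0.26 in 2x and 8.27 ± 0.19 in 4x, a difference of -0.71 with an adjusted p of 0.0254. UGT78D1 and UGT78D3 did not pass, with differences of -0.63 (adjusted p 0.0536) and -0.05 (adjusted p 0.879). The other measured UGT members of the auxin list, UGT84B1 and UGT84B2, differed by -0.06 and 0.01 between 4x and 2x and did not pass.

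The remaining differences between 4x and 2x did not pass over all probe sets. At an unadjusted p under 0.05 there were 12 members (27.3%), against 12.9% of all probe sets; 8 were lower in 4x (18.2% against 7.04%) and 4 higher (9.09% against 5.82%). The 12 became 6 without 2x 1, 4x 2 or 4x 4, and 8 with the replicate number as a block. A difference of at least 0.5 either way was found in 7 members (15.9%), against 4.38% of probe sets, and in 4 without 4x 1 or 4x 5. The ranges of the 4x and 2x seedlings did not overlap for 7 members (15.9%), against 7.24% of probe sets. Without 4x 3 it was 12 members, but leaving out a seedling can only keep or raise such a count. The share of all probe sets without 4x 3 was not computed. UGT71C4, UGT72E1, UGT74D1, UGT80B1 and UGT84A1 were lower in every tetraploid (11.4%, against 3.93%), and UGT71B6 and UGT71C2 were higher (4.55%, against 3.31%). Differences ranged from -1.11 to 0.52, with a median of -0.0853 (-0.00325 over all probe sets), and 17 of 44 were above 0 (38.6%, against 49.2%).

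**Figure D2:**
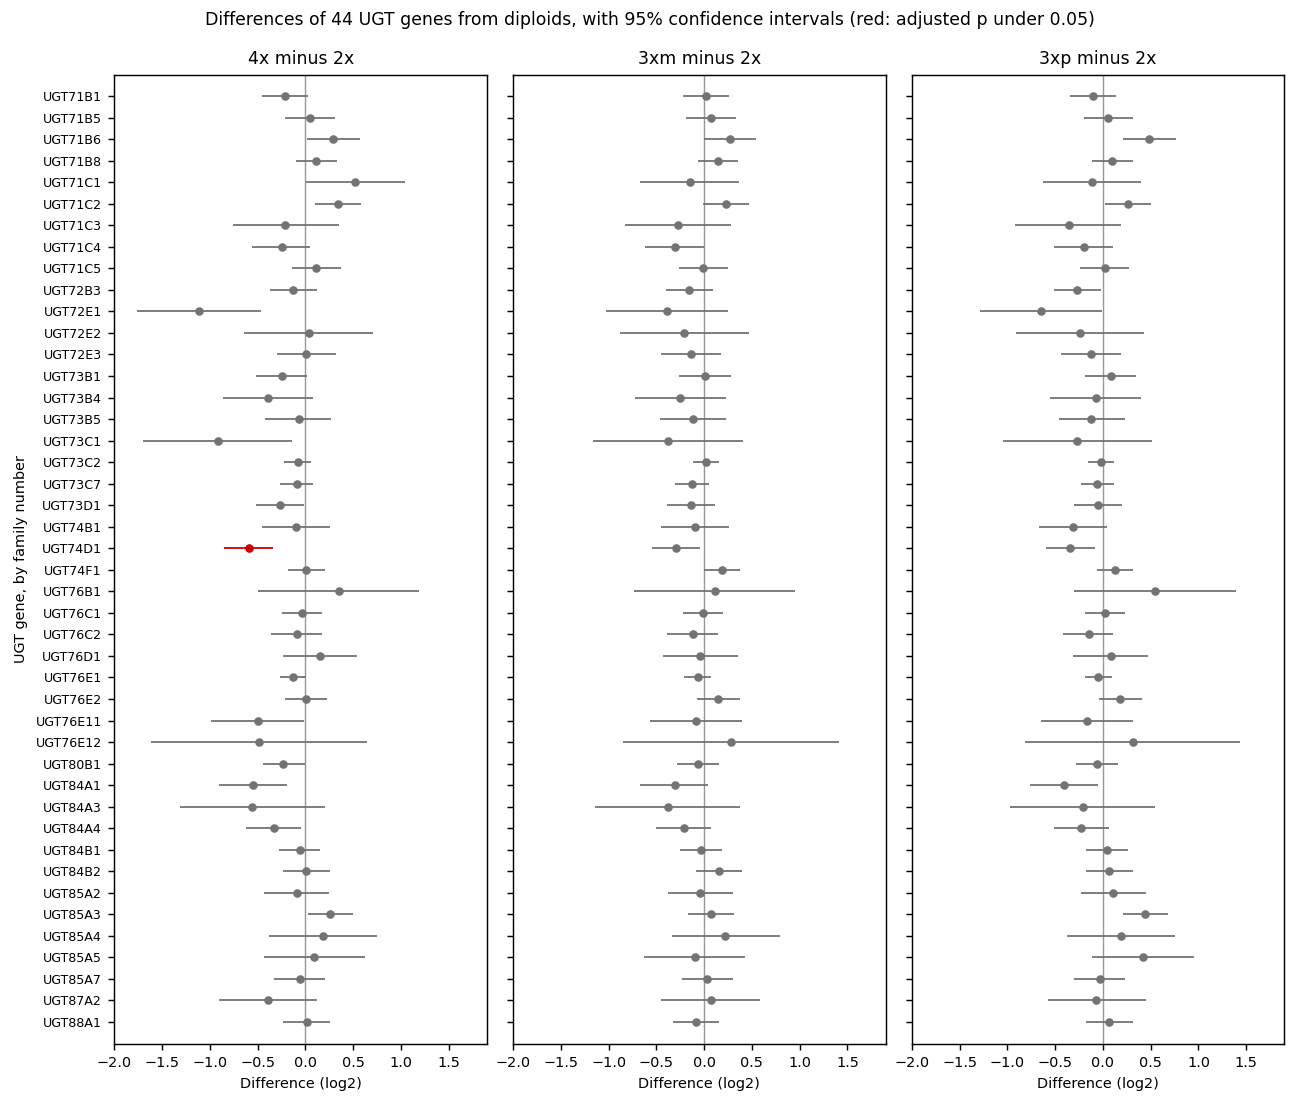
Difference from diploids (log2, horizontal axis) of the 44 UGT genes in 4x, 3xm and 3xp seedlings, with 95% confidence intervals from limma; red marks an adjusted p under 0.05. UGT74D1 in 4x (-0.59) is the 1 red point, and UGT72E1 in 4x (-1.11) is the point farthest from 0.

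Genes for monolignols and hydroxycinnamic acids held the member with the lowest 4x minus 2x difference. UGT72E1 (AT3G50740), which glucosylates coniferaldehyde and sinapaldehyde, stood at 9.37, 8.0, 8.35 and 8.38 in 2x, 8.78, 7.89, 8.44, 7.94 and 7.63 in 3xm, 8.16, 8.05, 7.08, 7.63 and 8.46 in 3xp, and 7.77, 7.65, 6.71, 7.44 and 7.50 in 4x. Every tetraploid lay below every diploid, and both triploid groups overlapped both. The 4x minus 2x difference was -1.11 ± 0.306 with an adjusted p of 0.0934, so it did not pass. It passed with arrays weighted by their scatter in these same data, at -1.0 and an adjusted p of 0.0292. In that fit 2x 4 had a weight of 2.71, and the other diploids 0.686, 1.3 and 0.72. Against diploids, 3xm differed by -0.39 (adjusted p 0.999; -0.34 without 3xm 4) and 3xp by -0.65 (adjusted p 0.401). Seedling 2x 1 weighed on these values: without it they were -0.83 in 4x, -0.11 in 3xm and -0.37 in 3xp. Maternal excess triploids were above tetraploids by 0.72 ± 0.289, or 0.77 without 3xm 4, with adjusted p-values of 0.477 and 0.464.

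The UGT84A genes make glucose esters of hydroxycinnamic acids such as sinapate. UGT84A1 (AT4G15480) stood at 4.97, 4.07, 4.57 and 4.13 in 2x, 4.10, 3.86, 4.36, 3.96 and 4.34 in 3xm, 4.21, 4.14, 3.51, 4.18 and 4.10 in 3xp, and 4.00, 3.80, 3.89, 3.89 and 3.85 in 4x. The tetraploids were closely grouped below the diploids, whose highest value came from 2x 1. The 4x minus 2x difference was -0.55 ± 0.170 with an adjusted p of 0.142, and 3xp minus 2x was -0.41 with an adjusted p of 0.327. Without 2x 1 they were -0.37 and -0.23. UGT84A3 averaged 8.60 ± 0.64 (SD, n = 4) in 2x, 8.22 ± 0.49 in 3xm, 8.39 ± 0.68 in 3xp and 8.04 ± 0.54 in 4x (n = 5 each). UGT84A4 averaged 6.50 ± 0.27, 6.29 ± 0.15, 6.27 ± 0.20 and 6.17 ± 0.21 in the same order. Neither passed, with 4x minus 2x differences of -0.56 and -0.33 (adjusted p 0.572 and 0.286), and -0.35 and -0.21 without 2x 1.

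Together the phenolic list had 6 measured members of 9, and none passed in any comparison. Its median was -0.44 for 4x minus 2x, -0.26 for 3xm minus 2x and -0.23 for 3xp minus 2x, where the medians over all probe sets were -0.00325, -0.00445 and -0.00359. These comparisons share the 4 diploid arrays, and 2x 1 held the highest value of all 6 genes. Without 2x 1 the 3 medians were -0.282, -0.0997 and -0.0545, and without 3xm 4 that of 3xm minus 2x was -0.179. UGT72E2, which glucosylates monolignols, did not follow UGT72E1 in tetraploids: it averaged 8.23 ± 0.51 in 2x and 8.27 ± 0.45 in 4x. Its 4x minus 2x difference was 0.04, and 0.29 without 2x 1. Against diploids UGT72E2 differed by -0.21 in 3xm (0.02 without 3xm 4) and -0.24 in 3xp. Without 2x 1 these were 0.05 and 0.01.

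**Figure D3:**
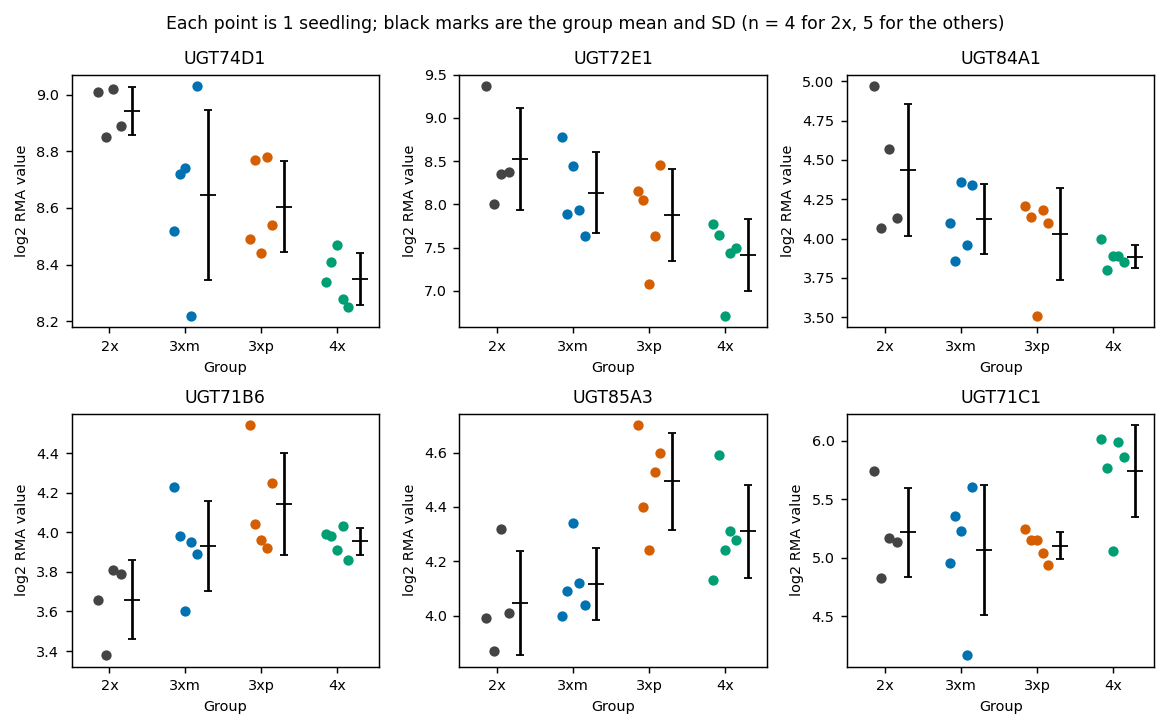
Level (log2 RMA value, vertical axes on separate scales) of 6 UGT genes in each seedling by group; black marks are the group mean and SD (n = 4 for 2x, 5 for the others). The tetraploids lie below all diploids for UGT74D1, UGT72E1 and UGT84A1 and above them for UGT71B6, and 4x 3 lies apart from the other tetraploids for UGT71C1.

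In the UGT71 family the median 4x minus 2x difference was 0.113, with 6 of 9 members above 0, and none passed. Of all probe sets 49.2% were above 0. Medians of the other larger families were -0.249 in UGT73 (0 of 7 above 0) and -0.0682 in UGT76 (3 of 8). They were -0.334 in UGT84 (1 of 5) and 0.0936 in UGT85 (3 of 5). UGT71B6 (AT3G21780), which glucosylates abscisic acid, stood at 3.66, 3.38, 3.81 and 3.79 in 2x, 4.23, 3.98, 3.60, 3.95 and 3.89 in 3xm, 4.54, 4.04, 3.96, 3.92 and 4.25 in 3xp, and 3.99, 3.98, 3.91, 4.03 and 3.86 in 4x. All tetraploids and all paternal excess triploids lay above all diploids, and maternal excess triploids overlapped them. The differences from diploids were 0.29 in 4x (adjusted p 0.344), 0.27 in 3xm (adjusted p 0.999; 0.26 without 3xm 4) and 0.48 ± 0.130 in 3xp (adjusted p 0.0921). The other measured abscisic acid genes, UGT71B8 and UGT71C5, each differed by 0.11 between 4x and 2x and did not pass (adjusted p 0.716 and 0.768); leaving out single seedlings gave 0.07 to 0.16 and 0.04 to 0.20.

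UGT71C1 (AT2G29750), an enzyme active on hydroxycinnamic acids in vitro, had its highest values in tetraploids. It stood at 5.74, 4.83, 5.17 and 5.14 in 2x, 4.96, 5.36, 5.23, 4.17 and 5.61 in 3xm, 5.25, 5.15, 5.15, 5.04 and 4.94 in 3xp, and 6.02, 5.77, 5.06, 5.99 and 5.86 in 4x. Apart from 4x 3, each tetraploid was above every other seedling. The 3xm minus 4x difference was -0.67 ± 0.231, or -0.45 without 3xm 4, and 3xp minus 4x was -0.64 ± 0.231. None passed, with adjusted p-values of 0.379, 0.499 and 0.958. UGT71C4 (AT1G07250) averaged 8.23 ± 0.04 (SD, n = 4) in 2x and 7.92 ± 0.36 in 3xm (n = 5), with every maternal excess seedling below every diploid, although 3xm 2 and 2x 1 both round to 8.19. Its 3xm minus 2x difference was -0.31 ± 0.147 (adjusted p 0.999), and -0.15 without 3xm 4.

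Among paternal excess triploids, UGT85A3 (AT1G22380) had the lowest adjusted p of the members against diploids. It stood at 3.99, 3.87, 4.32 and 4.01 in 2x, 4.00, 4.09, 4.34, 4.12 and 4.04 in 3xm, 4.70, 4.40, 4.24, 4.53 and 4.60 in 3xp, and 4.13, 4.59, 4.24, 4.31 and 4.28 in 4x. Only 3xp 3 lay within the range of the diploids, and only through 2x 3. The 3xp minus 2x difference was 0.44 ± 0.113 with an adjusted p of 0.0679, and 0 of 44 members passed in this comparison, against 1.15% of all probe sets. UGT85A3 passed with arrays weighted by their scatter in these same data (adjusted p 0.0311), without 2x 3 or without 3xp 3. At an unadjusted p under 0.05 there were 7 members (15.9%, against 12.2%), and 4 without 2x 1, 2x 3 or 3xp 2. The ranges did not overlap for UGT71B6 and UGT74D1 alone (2 members, against 4.85% of probe sets), and 19 of 44 were above 0 (43.2%, against 49.1%).

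The triploids were compared with each other because they hold the same number of genome copies but differ in which parent gave the additional one. No member passed (0 of 44), against 0.0044% of probe sets, and 2 had an unadjusted p under 0.05 in limma, where 6.09% of probe sets did. Without 3xm 4, 3xm 5, 3xp 1, 3xp 2 or 3xp 4 it was 1 member. These were UGT85A3, with 3xp minus 3xm at 0.38 ± 0.106 (adjusted p 0.621; 0.38 also without 3xm 4), and its neighbour UGT85A5, at 0.52 ± 0.237 (adjusted p 0.809). UGT85A5 stood at 5.22, 4.90, 5.59 and 5.48 in 2x, 5.03, 5.66, 5.58, 4.54 and 5.19 in 3xm, 6.53, 5.81, 5.34, 5.78 and 5.11 in 3xp, and 5.17, 5.46, 5.39, 5.72 and 5.22 in 4x. The triploid groups overlapped, and the difference was 0.35 without 3xm 4 and 0.31 without 3xp 1. UGT71B6 was next at 0.21 ± 0.123 (adjusted p 0.83), 0.22 without 3xm 4 and 0.11 without 3xp 1. Over the members the median was 0.0169, and -0.0344 without 3xm 4.

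Between maternal excess triploids and diploids no member passed (0 of 44 in limma, against 0.0352% of probe sets), and 1, UGT74D1, had an unadjusted p under 0.05, where 4.33% of probe sets did; without 3xm 4 it was also 1, and without 2x 2 it was 4. The ranges did not overlap for 2 members, against 1.37% of probe sets: UGT71C4 was lower and UGT74F1 higher, and both were also apart without 3xm 4, against 2.40%. UGT74F1 (AT2G43840), which glucosylates salicylic acid, stood at 4.37, 4.58, 4.56 and 4.49 in 2x and 4.65, 4.69, 4.63, 4.74 and 4.73 in 3xm. Its 3xp values of 4.52 to 4.76 and 4x values of 4.20 to 4.73 overlapped the diploids. The 3xm minus 2x difference was 0.19 ± 0.0902, or 0.17 without 3xm 4, with an adjusted p of 0.999.

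Between triploids and tetraploids 0 of 44 members passed in limma. For 3xm minus 4x the share of all probe sets was 0.0747%, and 6 members (13.6%) had an unadjusted p under 0.05, against 8.49%; it was 6 without 3xm 4 and 2 without 3xm 1 or 3xm 5. For 3xp minus 4x the share was 0.022%, and 3 members had an unadjusted p under 0.05, against 4.86%. The member count was 11 without 3xp 3 and 1 without 3xp 2. The share of all probe sets was not computed for these omissions. UGT74D1 was higher in both triploids, by 0.30 ± 0.116 in 3xm (0.41 without 3xm 4 and 0.20 without 3xm 5) and 0.26 ± 0.116 in 3xp. It did not pass. UGT73B1 (AT4G34138), which acts on flavonoids in vitro, stood at 6.33, 6.45, 6.45 and 6.57 in 2x, 6.60, 6.53, 6.47, 6.17 and 6.52 in 3xm, 6.67, 6.80, 6.32, 6.53 and 6.31 in 3xp, and 6.16, 6.35, 6.41, 6.31 and 5.77 in 4x. Only 4x 5 and 4x 1 lay below all other seedlings, and the 3xp minus 4x difference was 0.33 ± 0.122 (adjusted p 0.970), and 0.22 without 4x 5. Of the members 32 of 44 were above 0 in 3xp minus 4x (72.7%, against 50.5% of probe sets), with a median of 0.0926. The F test over the 4 groups passed for 0 members, against 0.769% of probe sets, and 7 had an unadjusted p under 0.05 (15.9%, against 10.4%), or 9 without 3xm 4.

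The other hormone groups showed no member that passed. The cytokinin enzymes UGT76C1 and UGT76C2 form N-glucosides, and UGT73C1 O-glucosides. UGT76C1 averaged 5.97 ± 0.07 (SD, n = 4), 5.96 ± 0.20, 5.99 ± 0.16 and 5.92 ± 0.10 (n = 5 each) in 2x, 3xm, 3xp and 4x. The 95% interval of its 4x minus 2x difference was -0.25 to 0.17. UGT76C2 averaged 6.70 ± 0.06, 6.57 ± 0.19, 6.55 ± 0.25 and 6.60 ± 0.19 in the same order. UGT73C1 (AT2G36750) was far more variable, at 5.85, 4.75, 6.15 and 5.42 in 2x, 5.28, 4.91, 5.34, 4.52 and 5.76 in 3xm, 5.95, 6.17, 4.36, 5.08 and 4.80 in 3xp, and 4.39, 5.09, 5.34, 4.21 and 4.08 in 4x. Its 4x minus 2x difference was -0.92 ± 0.373, with an adjusted p of 0.286 and overlapping groups.

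Of the salicylate and benzoate list, 4 of 7 genes were measured and none passed. UGT76B1 (AT3G11340), which glucosylates isoleucic acid, salicylic acid and N-hydroxypipecolic acid and so acts in immune signalling, stood at 6.73, 5.49, 6.16 and 6.05 in 2x, 6.30, 6.65, 6.79, 4.33 and 6.98 in 3xm, 6.66, 7.20, 6.10, 6.51 and 6.77 in 3xp, and 6.62, 6.41, 6.08, 6.21 and 6.93 in 4x. Seedling 3xm 4 was lower than all others, and the groups overlapped. UGT76D1 and UGT71C3, which act on dihydroxybenzoates and methyl salicylate, differed by 0.15 and -0.21 between 4x and 2x (adjusted p 0.799 and 0.817), and by 0.28 and -0.10 without 2x 1. UGT74B1 differed by -0.10 (adjusted p 0.879), and the sterol glucosyltransferase UGT80B1 by -0.23 (adjusted p 0.367). UGT73B4 and UGT73B5, which respond to pathogens and oxidative stress, differed by -0.39 and -0.07 (adjusted p 0.504 and 0.911). The listed brassinosteroid UGT genes were not analysed here.

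Neighbouring steps of the pathway were also without a call. None of 20 measured BGLU genes, whose enzymes include hydrolases of glucosides, passed in any comparison, and the smallest adjusted p of the F test were those of BGLU16 (0.435) and BGLU47 (0.511). None of 12 measured glutathione transferases of the GSTU and GSTF groups passed either. Of all probe sets 0.0044% to 1.15% passed, depending on the comparison, so 0 calls in lists this short say little. For 4x minus 2x, 3 of the 20 BGLU genes and 1 of the 12 transferases had an unadjusted p under 0.05 in limma, against 12.9% of probe sets. GSTU18 and GSTU20 had the smallest F p (adjusted 0.394 and 0.712), and GSTU18 differed by 0.46 between 3xp and 2x. Of 29 genes listed for UDP-sugar supply 1 was measured, USP, with a 4x minus 2x difference of 0.01. GT72B1, SGT, UF3GT and AT5G54010, which carry a UGT name as a synonym only, did not pass in any comparison.

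For some members the seedlings of 1 group lay far apart. The SD within groups, pooled over the 4 groups, ranged from 0.0773 for UGT73C2 to 0.883 for UGT76E12, with a median of 0.199 against 0.176 for all probe sets. UGT76E12 (AT3G46660), the neighbour of UGT76E11, an enzyme of flavonols, stood at 5.08, 3.58, 4.76 and 3.35 in 2x, 3.87, 3.85, 6.24, 3.65 and 4.74 in 3xm, 5.86, 5.10, 3.29, 4.60 and 3.67 in 3xp, and 3.22, 3.89, 4.11, 3.77 and 3.51 in 4x. High seedlings occurred in 2x, 3xm and 3xp, while all 5 tetraploids were at or below 4.11. The next in spread were UGT76B1 (0.661), UGT73C1 (0.610), UGT84A3 (0.590) and UGT72E2 (0.524). UGT84A3 stood at 9.21, 7.84, 9.05 and 8.29 in 2x, 8.23, 8.27, 8.56, 7.39 and 8.64 in 3xm, 8.89, 8.82, 7.22, 8.45 and 8.56 in 3xp, and 7.57, 8.22, 8.91, 7.75 and 7.76 in 4x. UGT72E2 stood at 8.99, 7.90, 7.94 and 8.09 in 2x, 8.15, 7.97, 8.34, 7.13 and 8.54 in 3xm, 8.22, 8.57, 7.17, 7.64 and 8.37 in 3xp, and 8.43, 8.15, 7.84, 7.96 and 8.98 in 4x. Seedlings 3xm 4 and 3xp 3 were low for both genes, and 2x 1 was high.

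**Figure D4:**
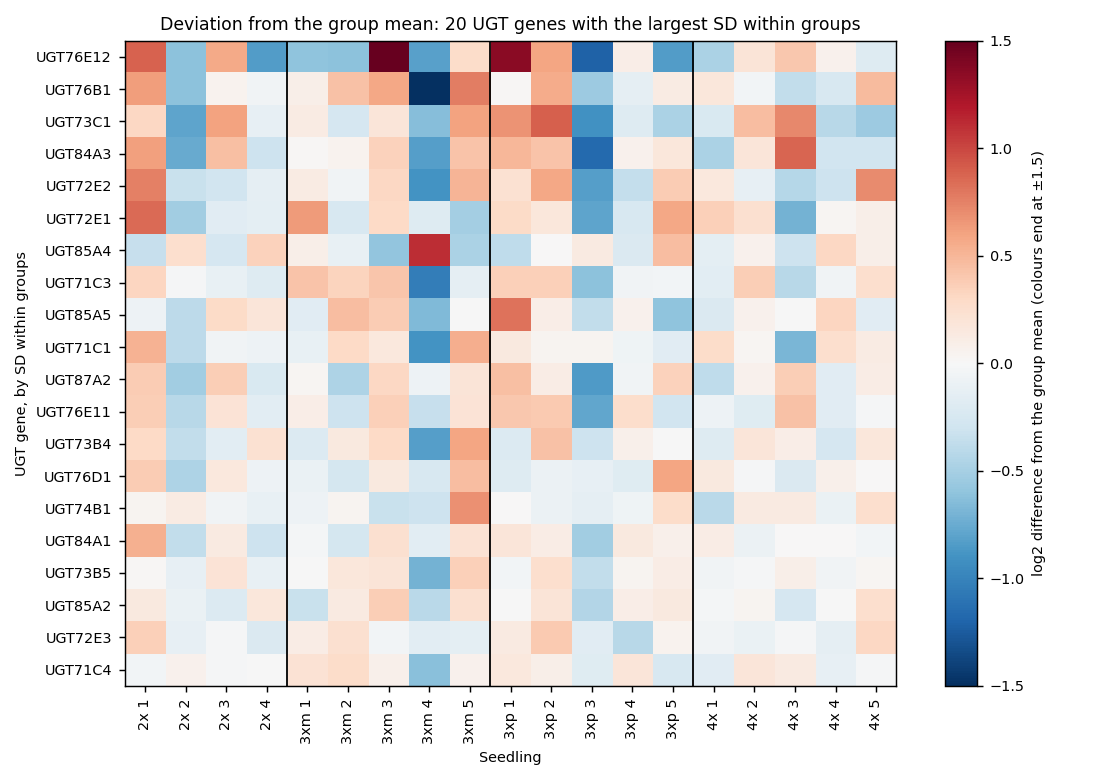
Deviation of each seedling from its group mean (log2, colour scale ending at 1.5 either way) for the 20 UGT genes with the largest SD within groups; columns are seedlings by group. Blue columns at 3xm 4 and 3xp 3 and the red column at 2x 1 run through many rows, with UGT85A4 an exception in 3xm 4.

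Many of the members lie in tandem clusters, so neighbours were compared after subtracting group means. Members at most 5 gene places apart formed 12 clusters with 29 of the 44 members, and 15 lay outside. Of 23 neighbour pairs over 19 seedlings, 17 had a positive correlation and 4 passed an adjusted permutation p of 0.05, two-sided, by both Pearson's r and Spearman's rho. UGT76E12 and UGT76E11 on chromosome 3 had r = 0.83 (permutation p = 0.00016, adjusted 0.00368) and rho = 0.84 (permutation p = 0.00014, adjusted 0.00322). Here and below, the 2 farthest seedlings are those farthest from the median of the first-named gene alone. Without them r was 0.84, and without 3xm 4 it was 0.81. High and low UGT76E12 seedlings were thus also high and low for UGT76E11, over a smaller range.

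On chromosome 4, UGT84A1 correlated with UGT84A3 at r = 0.73 (permutation p = 0.0043, adjusted 0.0247) and rho = 0.70 (permutation p = 0.00536, adjusted 0.0411). It correlated with UGT84A4 at r = 0.73 (permutation p = 0.00293, adjusted 0.0225) and rho = 0.61 (permutation p = 0.00836, adjusted 0.0481). Without the 2 farthest seedlings these r values were 0.60 and 0.53, and without 3xm 4 they were 0.74 and 0.73. The same seedlings were therefore high or low for several UGT84A genes. On chromosome 2, UGT73B5 and UGT73B4 had r = 0.81 (permutation p = 0.00103, adjusted 0.0118) and rho = 0.69 (permutation p = 0.00397, adjusted 0.0411). That pair rested in part on 3xm 4: without it r was 0.64 and the adjusted permutation p 0.0983, and without the 2 farthest seedlings r was 0.65.

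The other 19 neighbour pairs did not pass. UGT71C4 and UGT71C3 had r = 0.73 (adjusted permutation p = 0.0811), but 0.40 without 3xm 4, UGT84A3 and UGT84A4 had 0.59, and UGT84B2 and UGT84B1 had 0.55, which was 0.15 without the 2 farthest seedlings. UGT71C2 and UGT71C1 had r = -0.28, UGT73C1 and UGT73C2 -0.30, and UGT76C2 and UGT76C1 -0.22, with adjusted permutation p-values of 0.449, 0.396 and 0.48. Without 3xm 4 these r values were 0.0, -0.29 and 0.06. In the UGT85A cluster of 4 genes r ran from 0.18 to 0.49, and no pair passed. Close paralogs can bind each other's probes, and the part of this in the correlations was not tested.

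**Figure D5:**
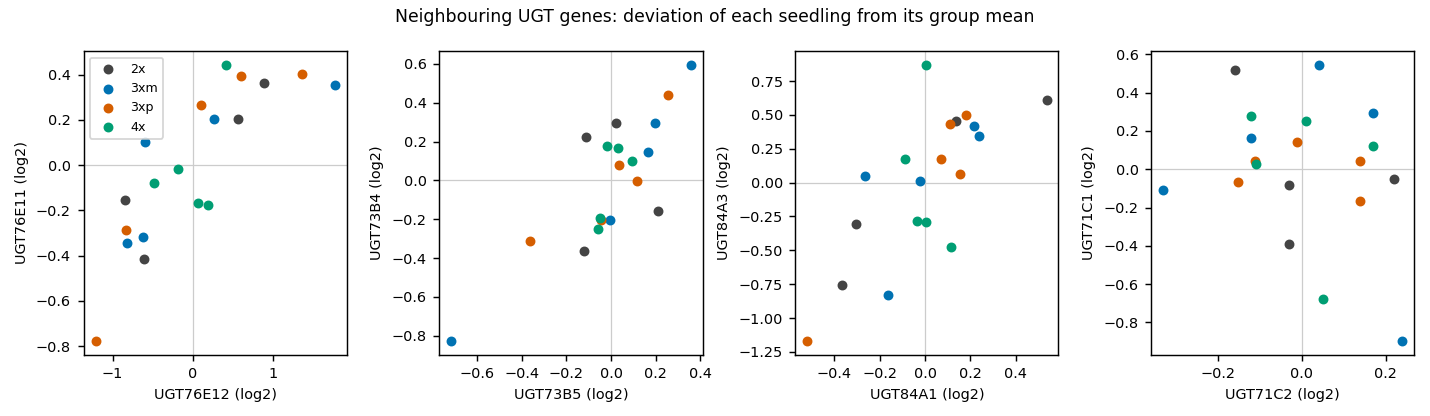
Deviation from the group mean (log2, both axes) of 4 pairs of neighbouring UGT genes in 19 seedlings, coloured by group. Points follow a rising band for UGT76E12 with UGT76E11 (r = 0.83), UGT73B5 with UGT73B4 (r = 0.81) and UGT84A1 with UGT84A3 (r = 0.73), but not for UGT71C2 with UGT71C1 (r = -0.28). Without 3xm 4 the r values were 0.81, 0.64, 0.74 and 0.0 in the same order.

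Correlated members were not limited to neighbours. As a description, 37 of 946 member pairs (3.91%) had r over 0.7 across the 19 seedlings, against 0.738% of 891780 pairs among 1336 genes taken at even spacing from the table. Without 3xm 4 it was 31 pairs (3.28%), against 0.752%. Pairs of 1 subfamily made up 6 of the 37, and 46 of the 946. Their median r was 0.302, against 0.19 for all member pairs. Without 3xm 4 they made up 4 of the 31. The 4 pairs with the highest r were UGT73B5 with UGT76B1 at 0.88 (0.64 without 3xm 4), UGT73B5 with UGT74D1 at 0.87 (0.75), UGT73C1 with UGT84A3 at 0.87 (0.86) and UGT76E11 with UGT84A3 at 0.86 (0.85). All pairs share the same 19 arrays, their scaling and the seedlings' growth and handling.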

How the data were processed

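RNA of 19 single seedlings was hybridised to 1-colour Affymetrix arrays, 1 array each. The authors deposited log2 values from RMA (per the submitters' processing notes), a method that corrects background, equalises the distribution between arrays and gives 1 value per probe set. Its version is not given in the sources used here. After removal of 64 controls from 22810 probe sets (0 missing values), 22746 were tested. The platform annotation gave 13513 probe sets 1 gene, 503 several, and did not list 8730; RefSeq's TAIR10.1 genes supplied current symbols for 13436 of them, and the chromosome and order of genes. Signal over background, not sequencing depth, and the number of arrays limit the precision. No 2 arrays were duplicates, with a root mean square difference of at least 0.231.

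Groups came from the ploidy labels. The limma package (3.58.1, in R 4.3.3) was fitted to log2 values with 1 coefficient per group over all 19 seedlings, no block and no filter, and p-values were adjusted by Benjamini-Hochberg over 22746 probe sets. Adjusted p-values of genes come from limma, an SE belongs to a difference, and an SD to the seedlings of a group. Correlations of neighbours used 100000 permutations within groups, two-sided, adjusted over 23 pairs. The script was tested on simulated data. Alternatives were a fit of the compared groups alone, trend and robust moderation, leaving out the dimmest 30%, further quantile normalization, array weights, a replicate block and leaving out each seedling. The choice of 3xm 4 for separate values, the median over members under each setting, and list medians and counts without single seedlings were added after seeing the data. Where member counts at an unadjusted p under 0.05 leave out a seedling, the share of all probe sets beside them is from all 19 seedlings.

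Members and gene lists were chosen with earlier results of these data known. Named members were those called, the 3 with the smallest p in each comparison, the 5 highest and 3 lowest means, the 5 largest SDs and up to 4 per substrate list with the smallest F p; from other lists, those called or the 2 with the smallest F p. Other members named in small counts, as neighbours or in pairs were chosen after their values were seen.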

Additional observations from a re-analysis of the deposited data

Results flagged for a closer look

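In groups of 4 or 5 seedlings, the gap between an extreme value and its nearest neighbour was set against the range of the group for the 15 members named for their tests or spread. Of 60 groups tested 5 held such a lone value, at a threshold set for about 1 in 20 independent groups by chance. These groups share seedlings, and some members were chosen for a large SD, which a lone value raises. The count was therefore not compared with chance. For UGT71C1, 4x 3 stood at 5.06 and the next tetraploid at 5.77. For UGT71C4, 3xm 4 stood at 7.29 and the next maternal excess triploid at 7.98. For UGT76B1, 3xm 4 stood at 4.33 and the next at 6.30. For UGT84A1, 3xp 3 stood at 3.51 and the next paternal excess triploid at 4.10. For UGT84A3, 3xp 3 stood at 7.22 and the next at 8.45. All 5 were the lowest seedling of their group.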

How the results depend on the processing

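The differences followed through every setting, most of them chosen for a small p, kept their direction. Other differences of named members did not always do so. For UGT72E2, 4x minus 2x was 0.04, and -0.14 to 0.29 when single seedlings were left out. For UGT76E12, 3xm minus 2x was 0.28, and -0.16 without 3xm 3. Array weights were estimated from these same arrays, at 2.71 for 2x 4 and 0.284 to 1.53 for the others. With array weights, members called were 3 for 4x minus 2x (UGT72E1, UGT74D1 and UGT71C2), 1 for 3xp minus 2x (UGT85A3) and 1 in the F test (UGT74D1), against 1, 0 and 0; in each, leaving out 1 seedling gave 0 to 1, and the other comparisons stayed at 0. Of all probe sets, array weights called 1017 for 4x minus 2x (218 as reported), 423 for 3xp minus 2x (262), 45 for 3xm minus 4x (17) and 578 in the F test (175). A fit of the compared groups alone called 451 for 4x minus 2x, 109 for 3xp minus 2x, 0 for 3xm minus 2x (8), 0 for 3xp minus 3xm (1) and 1 for 3xp minus 4x (5). Leaving out 1 seedling gave 77 to 382 for 4x minus 2x, 1 to 17 for 3xm minus 2x, 107 to 356 for 3xp minus 2x, 1 to 4 for 3xp minus 3xm, 6 to 56 for 3xm minus 4x, 2 to 5 for 3xp minus 4x and 86 to 288 in the F test. The cause was not tested. Of 27 same-numbered pairs of seedlings 12 correlated above 0.1 (-0.375 to 0.435, median 0.0383). The best correlated seedling of another group had the same number in 17 of 57 combinations. Whether the replicate numbers mark a pairing of seedlings was not tested. With the replicate block UGT74D1 differed by -0.61 (adjusted p 0.0421) between 4x and 2x, no member's call changed, and the block called 2 probe sets for 3xp minus 3xm, 28 for 3xm minus 4x and 8 for 3xp minus 4x. The median over members was below 0 in all settings for 4x minus 2x (-0.104 to -0.0637) and crossed 0 for 3xm minus 2x (-0.098 to 0.00256), 3xp minus 2x (-0.0785 to 0.016), 3xp minus 3xm (-0.0344 to 0.0677) and 3xm minus 4x (-0.00467 to 0.107). For the 7 members among the dimmest 30% of probe sets, signal near background limits what could be seen.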
